A study of Homo sapiens with 6 samples.

Results

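The 4 HOX clusters, HOXA on chromosome 7, HOXB on chromosome 17, HOXC on chromosome 12 and HOXD on chromosome 2, were examined for chromatin accessibility in human embryonic stem cells. The members were the deposited open regions whose midpoint lay in 1 of 4 windows of hg19. The windows were 27.10 to 27.27 Mb of chromosome 7 for HOXA, 46.59 to 46.82 Mb of chromosome 17 for HOXB, 54.32 to 54.46 Mb of chromosome 12 for HOXC and 176.93 to 177.07 Mb of chromosome 2 for HOXD. They held 92 of 118556 regions, of which 30 lay in HOXA, 28 in HOXB, 14 in HOXC and 20 in HOXD. Counting every region with any overlap, or those lying wholly inside, gave the same number, 92.

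All 6 libraries came from WA09, an established human embryonic stem cell line, moved to feeder-free culture for the experiments and sorted by surface antigen. The GCTM-2highCD9highEPCAMhigh population (high) was compared with the GCTM-2midCD9mid population (mid), whose name carries no EPCAM gate, with 3 replicates of each. The treatment label gives the high gate without EPCAM as well. GCTM-2 is an antibody against a pericellular proteoglycan of pluripotent cells, CD9 is a tetraspanin and EPCAM is an epithelial adhesion molecule. No drug, knockout or transgene separated the groups, and all samples were of 1 cell line. Accessibility was measured by FAST-ATAC, an assay that uses Tn5 transposase to tag accessible DNA. The values were read counts per region, with 15486251 to 29025274 counts per library. The table carries no gene names, so the cell labels were not checked against marker genes. In sorted bulk samples, a larger share of cells with an open region cannot be told apart from more opening in each cell.

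HOX genes encode homeodomain transcription factors that set position along the head to tail axis. Within a cluster they lie in order of paralogue number, and low-numbered genes are in general switched on earlier and further forward than high-numbered ones. Among the genes at the cluster ends, HOXB1 acts in the hindbrain, HOXA13 and HOXD13 in digits and the urogenital tract, HOXC13 in hair and nails, and HOXB13 in the tail region and prostate. In pluripotent cells the clusters are known as long Polycomb-bound domains that carry activating and repressive histone marks together, rich in CpG islands, with the genes silent or low. The genome annotation used here is GRCh38, whereas the regions are in hg19, so genes were used for their order along each cluster and no region was assigned to a single gene. By that order, rising hg19 coordinates ran from the HOXA2 side to the HOXA13 side, from HOXB1 to HOXB13, from HOXC13 to HOXC4 and from HOXD13 to HOXD1.

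The sequence setting of the clusters is shown by 4 RefSeq promoters, each the one with the most CpG dinucleotides in its cluster among the genes that matched. Promoters of GRCh38.p14, taken as the 250 bases before the transcription start, were found for 20 of the 38 HOX genes looked up. HOXB1 was the sole match in HOXB, and HOXC4 shares its window with HOXC5. Capitals mark each CpG, spelled CG, which reads the same on both strands, and every run is written 5′ to 3′ on the gene's strand.
HOXA13, chr7:27200092-27200341, minus strand: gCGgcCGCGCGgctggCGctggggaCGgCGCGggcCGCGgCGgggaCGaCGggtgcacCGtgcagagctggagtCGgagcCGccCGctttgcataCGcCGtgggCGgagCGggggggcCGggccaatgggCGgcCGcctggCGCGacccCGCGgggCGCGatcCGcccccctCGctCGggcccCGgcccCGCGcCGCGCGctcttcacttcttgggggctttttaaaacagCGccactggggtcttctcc
HOXB1, chr17:48531012-48531261, minus strand: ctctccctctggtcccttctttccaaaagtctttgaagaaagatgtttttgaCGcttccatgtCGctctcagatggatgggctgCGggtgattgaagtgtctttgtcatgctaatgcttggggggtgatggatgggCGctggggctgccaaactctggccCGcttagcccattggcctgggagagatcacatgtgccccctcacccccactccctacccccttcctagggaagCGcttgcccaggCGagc
HOXC4, chr12:54016638-54016887, plus strand: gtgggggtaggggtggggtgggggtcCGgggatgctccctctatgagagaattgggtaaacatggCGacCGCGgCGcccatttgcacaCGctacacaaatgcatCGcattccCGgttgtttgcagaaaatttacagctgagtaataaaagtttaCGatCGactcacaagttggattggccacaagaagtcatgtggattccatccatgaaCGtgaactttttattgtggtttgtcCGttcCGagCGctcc
HOXD1, chr2:176188418-176188667, plus strand: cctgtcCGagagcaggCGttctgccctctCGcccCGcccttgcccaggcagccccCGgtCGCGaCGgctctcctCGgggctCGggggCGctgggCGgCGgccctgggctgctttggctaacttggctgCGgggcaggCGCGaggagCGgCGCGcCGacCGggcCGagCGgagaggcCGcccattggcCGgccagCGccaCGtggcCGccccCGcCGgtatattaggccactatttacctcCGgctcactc
These 4 windows differed widely in CpG number. The HOXA13 window held 40 CpG at 78.0% GC, and 2.16% of 35116 promoters of this length held as many. The HOXD1 window held 31, a number reached by 10.9% of promoters. The HOXC4 window held 14, reached by 44.8%, and the HOXB1 window held 7, reached by 58.9%. Over the 20 matched genes, each taken at its window with the most CpG among 27 promoters, the median was 22 CpG. The range ran from 4 in HOXD4 to 40 in HOXA13. Over all promoters, where no such choice was made, the median was 11, so these medians are not like for like. At least 1 CpG was present in 93.9% of all promoters. The hg19 region that covers each promoter was not determined.

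HOX regions were more accessible in the mid population. Of the 92 regions, 35 (38.0%) were called higher in mid at a Benjamini-Hochberg adjusted p under 0.01 by edgeR's quasi-likelihood test with the replicate number as a block, against 3.77% of all 118556 regions. None was called higher in the high population, against 2.32% of all regions. DESeq2 called 0 of the 81 HOX regions to which it gave an adjusted p higher in high, against 990 of 58794 regions. The count was also 0 at an unadjusted p under 0.05 in edgeR, a level that 14.2% of all regions passed in that direction. At the same level 73 HOX regions were higher in mid, against 13.6% of all regions. The fitted log2 fold change of high over mid was below 0 in 88 regions and above 0 in 4. Its median was -0.53, with quartiles of -0.73 and -0.38, beside 0.03 over all regions. The changes were mostly modest, and 4 of the 35 called regions differed by more than 2-fold. Over the whole table this held for 288 of the 4472 regions called higher in mid.

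The sample values behind these counts separated the populations in most HOX regions. In 69 regions (75%), every mid library lay above every high library in CPM, the count scaled to a common library size with the trimmed mean of M values (TMM), against 13% of all regions. No HOX region had every high library above every mid library, against 15330 of all 118556 regions. Within same-numbered pairs, all 3 pairs were lower in high in 79 regions (85.9%), against 22.4% of all regions. The median log2 ratio of high to mid over the 92 regions was -0.52 in pair 1, -0.60 in pair 2 and -0.42 in pair 3.

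The number of calls depended on the pairing and on replicate 2. Without the replicate block, 10 of the 35 regions were called, against 1.11% of all regions. Without replicate 2 of both populations, 2 were called, against 0.369% of all regions. Leaving out high replicate 2 alone left 7, against 0.708% of all regions, and leaving out mid replicate 2 alone left 2, against 0.364%. In these fits the remaining replicate 2 library was alone in its block and gave no information on the fold change. Their HOX median was -0.49, the same as in the fit without both, although more regions were called without high replicate 2. They do not show which of the libraries mattered. Without replicate 1 of both populations 39 were called, against 3.66% of all regions, and without replicate 3, 30, against 4.04%. The median log2 fold change lay between -0.58 and -0.49 in all these fits. DESeq2 called 31 of the 35, against 6.42% of the 58794 regions to which it gave an adjusted p, and gave none to 1 of the 4 it did not call.

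All 4 clusters took a larger share of the library in mid. HOXA regions held 0.0221%, 0.0222% and 0.0189% of the counts of high replicates 1 to 3, and 0.0273%, 0.0321% and 0.0255% of those of mid replicates 1 to 3. HOXB regions held 0.0169%, 0.0185% and 0.0196% in high, and 0.0269%, 0.0306% and 0.0253% in mid. The lowest mid library lay above the highest high library in both clusters.
HOXC regions held 0.0124%, 0.0136% and 0.0120% of counts in high, and 0.0198%, 0.0209% and 0.0176% in mid. HOXD regions held 0.0301%, 0.0290% and 0.0269% in high, and 0.0368%, 0.0399% and 0.0331% in mid. Here too the populations did not overlap.
The mean share was 1.34-fold higher in mid in HOXA, 1.51-fold in HOXB, 1.53-fold in HOXC and 1.27-fold in HOXD. Over the 4 clusters together it was 0.0807% ± 0.003 (SD, n = 3) in high and 0.112% ± 0.0111 (SD, n = 3) in mid. High minus mid was -0.0293 percentage points in pair 1, -0.0402 in pair 2 and -0.0240 in pair 3. These differences were larger than the 95% Wilson interval of any 1 library, which was at most 0.0029 points wide and covers counting error only. With TMM scaling the summed signal was 781.9 CPM in high and 1155 CPM in mid, a 1.48-fold difference.

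**Figure D1:**
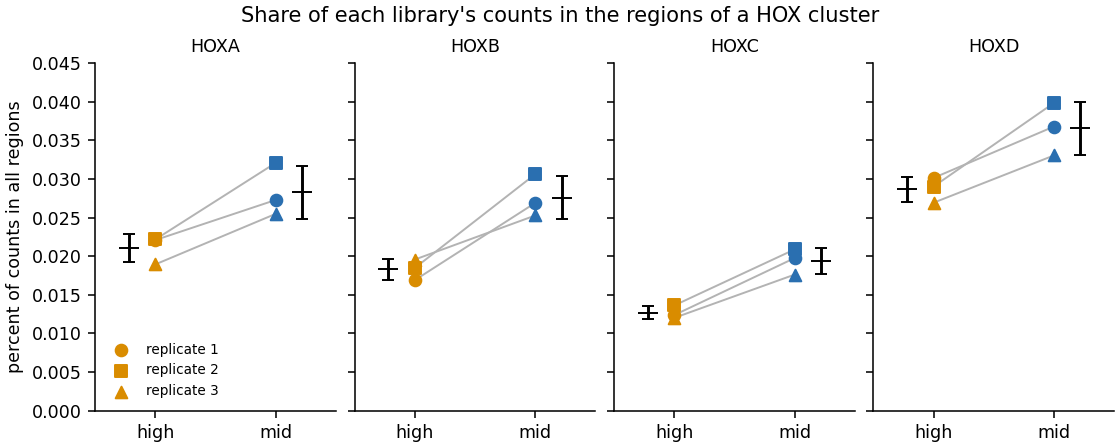
Percent of each library's counts that fell in the regions of HOXA, HOXB, HOXC and HOXD, with 1 point per library, grey lines joining same-numbered replicates, and black marks for the mean and SD of 3 replicates. In each panel the 3 mid libraries lie above the 3 high libraries, and HOXD takes the largest share in both populations.

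The clusters differed in how many of their regions passed the test. HOXC had 9 of 14 regions called higher in mid (64.3%) and HOXB 14 of 28 (50.0%), whereas HOXD had 5 of 20 (25%) and HOXA 7 of 30 (23.3%). The median log2 fold change was -0.71 in HOXC, -0.67 in HOXB, -0.50 in HOXA and -0.44 in HOXD. Every HOXC region was lower in high, with values from -1.03 to -0.37, and in all 14 the libraries of the populations did not overlap. The values ran from -1.25 to 0.14 in HOXB, from -1.12 to 0.18 in HOXA and from -0.67 to 0.11 in HOXD. The difference between clusters was not tested. At an adjusted p under 0.05, 15 regions of HOXA, 16 of HOXB, 10 of HOXC and 10 of HOXD were higher in mid, against 7.08% of all regions.

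**Figure D2:**
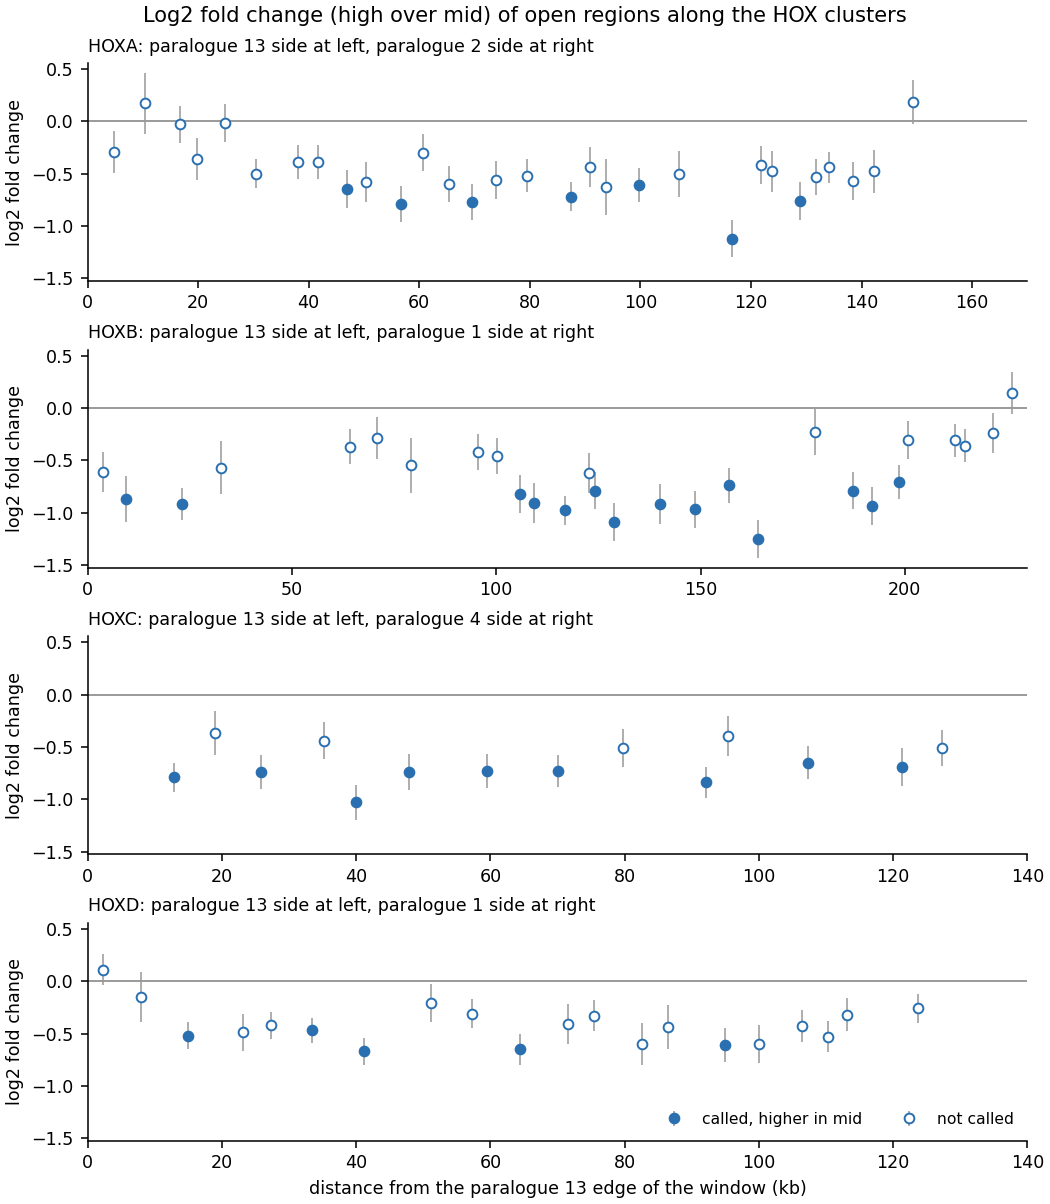
Log2 fold change of high over mid with its standard error for every HOX region, against distance in kb from the paralogue 13 edge of each window, with filled points for regions called higher in mid and open points for the others. Of the 92 points 88 lie below 0, and filled points are most frequent in HOXC and in the middle of HOXB.

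HOXB held the region with the largest change, at chr17:46655162-46656640 (1479 bp). Its CPM was 4.05, 5.29 and 4.59 in high replicates 1 to 3 and 10.6, 13.6 and 9.35 in mid replicates 1 to 3. Each mid library was well above the highest high library, and the log2 fold change was -1.25 (SE 0.18, adjusted p = 1.89e-06 by edgeR). This call held without the block (adjusted p = 0.00152) and without replicate 2 (adjusted p = 0.00264). The region opened a run of 6 neighbouring called regions that spanned 41.5 kb, from 46655162 to 46696639. In the same run, chr17:46690115-46692162 measured 6.51, 5.78 and 6.63 CPM in high and 13, 17.5 and 10.9 CPM in mid. Its log2 fold change was -1.09 (SE 0.18, adjusted p = 1.42e-05). Also in this run, chr17:46670385-46672300 and chr17:46679426-46680579 had log2 fold changes of -0.97 and -0.92, each called.

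Further called runs lay on both sides of it. The next run towards HOXB13 held 3 regions over 12.6 kb and included chr17:46701944-46704612, the most accessible region of HOXB by CPM. It measured 12.8, 13.8 and 12.7 CPM in high and 25.6, 29.9 and 22.6 CPM in mid, with no overlap (log2 fold change -0.98, SE 0.14, adjusted p = 2.63e-06). Its neighbour chr17:46709990-46711659 had a log2 fold change of -0.91. Towards HOXB1, a run of 3 regions over 13.3 kb included chr17:46627453-46628866, with a log2 fold change of -0.94. At the HOXB13 end a pair of called regions spanned 15.4 kb and included the widest HOXB region, chr17:46795624-46798330 (2707 bp). Its CPM was 13.7, 10.9 and 11.9 in high and 26.0, 22.7 and 20.4 in mid, again without overlap (log2 fold change -0.92, SE 0.15, adjusted p = 1.21e-05).
At the HOXB1 edge of the window the pattern was not seen. The region chr17:46593390-46594242 measured 4.68, 4.12 and 5.15 CPM in high and 5.52, 2.86 and 4.52 CPM in mid, which overlapped (log2 fold change 0.14, SE 0.20, adjusted p = 0.697). With the window cut into 3 equal lengths, 5 of 11 regions were called at the HOXB1 end, 7 of 11 in the middle and 2 of 6 at the HOXB13 end, with median log2 fold changes of -0.36, -0.82 and -0.59.

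HOXC had the fewest regions, 14. The order of HOXC and HOXB by share called depended on the fit, since without the block 3 of 14 and 6 of 28 were called, and with loess offsets on region width 5 of 14 and 14 of 28. The largest change was at chr12:54359213-54360813 (1601 bp), towards the HOXC13 end. Its CPM was 8.22, 6.77 and 6.19 in high and 16.6, 14.1 and 12.5 in mid. The lowest mid library exceeded the highest high library, and the log2 fold change was -1.03 (SE 0.17, adjusted p = 1.33e-05 by edgeR). It remained called without replicate 2 (adjusted p = 0.00913). It began a run of 4 called regions over 32.8 kb that ended with the widest HOXC region, chr12:54388028-54391963 (3936 bp). That region measured 14.0, 15.4 and 14.3 CPM in high and 28.1, 26.8 and 18.6 CPM in mid (log2 fold change -0.73, SE 0.15, adjusted p = 0.000393). Mid replicate 3 was the lowest of the mid libraries there and still lay above high. The remaining regions of the run, chr12:54366849-54368987 and chr12:54378466-54380528, had log2 fold changes of -0.74 and -0.73.

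The most accessible HOXC region was chr12:54331777-54334000, near HOXC13. It measured 17.8, 16.0 and 15.4 CPM in high and 28.6, 29.9 and 26.4 CPM in mid, with a wide gap between the populations (log2 fold change -0.79, SE 0.14, adjusted p = 5.80e-05). Between these and HOXC4, chr12:54410390-54413860 had a log2 fold change of -0.84 and chr12:54425911-54428804 one of -0.65, and both were called, as was chr12:54344496-54347311 at -0.74. The smallest change in HOXC was -0.37 (SE 0.21, adjusted p = 0.249), at chr12:54338547-54339522. Called regions were found in all 3 parts of the window, 3 of 5 at the HOXC13 end, 4 of 5 in the middle and 2 of 4 at the HOXC4 end.

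HOXA had the most regions and a single region past 2-fold. At chr7:27152631-27154167 (1537 bp), on the HOXA2 side, CPM was 6.33, 4.80 and 5.19 in high and 12.2, 11.9 and 11.2 in mid. The replicates lay close together within each population and far apart between them (log2 fold change -1.12, SE 0.18, adjusted p = 9.51e-06 by edgeR). Without replicate 2 its adjusted p was 0.0104, just past the threshold. The called region with the second smallest p-value in the cluster was chr7:27181269-27183833 (2565 bp). It measured 14.3, 14.0 and 13.6 CPM in high and 26.9, 22.9 and 19.7 CPM in mid (log2 fold change -0.72, SE 0.14, adjusted p = 0.000402). The other 5 called regions had log2 fold changes from -0.79 to -0.61. They were chr7:27140274-27142097, chr7:27169415-27171240, chr7:27199697-27201165, chr7:27212201-27214549 and chr7:27222396-27223865. No 2 called regions of HOXA were next to each other.

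The widest HOXA region, chr7:27237903-27241047 (3145 bp, towards HOXA13), did not pass. Its CPM was 14.6, 16.2 and 15.3 in high and 22.5, 23.6 and 19.4 in mid, which did not overlap (log2 fold change -0.50, SE 0.14, adjusted p = 0.0128). The highest value of the cluster was at the HOXA2 edge of the window, in chr7:27120281-27121054. There CPM was 3.82, 4.49 and 3.63 in high and 4.24, 3.77 and 2.64 in mid, with overlap between the populations (log2 fold change 0.18, SE 0.21, adjusted p = 0.604). Along the window, 2 of 9 regions on the HOXA2 side, 3 of 10 in the middle and 2 of 11 on the HOXA13 side were called, with medians of -0.48, -0.58 and -0.39.

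HOXD had the most accessible and widest regions of the 4 clusters and the smallest changes. The widest, chr2:176968648-176973622 (4975 bp), measured 29.9, 26.9 and 23.7 CPM in high and 49.9, 45.7 and 33.4 CPM in mid. All mid libraries were above all high libraries, although mid replicate 3 was close to high replicate 1 (log2 fold change -0.67, SE 0.13, adjusted p = 0.000210 by edgeR). Its neighbour chr2:176961129-176965813 (4685 bp) had the highest CPM of all HOX regions, 39.4, 39.1 and 37.6 in high and 54.5, 57.4 and 49.2 in mid. The high libraries were almost level and lay below every mid library (log2 fold change -0.47, SE 0.12, adjusted p = 0.00620). Both lay in the part of the window at the HOXD13 end, as did chr2:176943542-176946316, with 25.6, 26.0 and 25 CPM in high and 36.8, 40.2 and 33.5 CPM in mid (log2 fold change -0.52, SE 0.13, adjusted p = 0.00386). The other called regions were chr2:176992961-176995767 at -0.65 and chr2:177023763-177026149 at -0.61.
The summed signal of that end was 140 CPM in high and 193.0 CPM in mid, the highest of any of the 3 parts in the 4 clusters. The region at the HOXD13 edge of the window, chr2:176930902-176933741, ran the other way without passing the test. Its CPM was 18.1, 14.9 and 15.3 in high and 15.9, 14.9 and 13.8 in mid, which overlapped (log2 fold change 0.11, SE 0.15, adjusted p = 0.661).

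**Figure D3:**
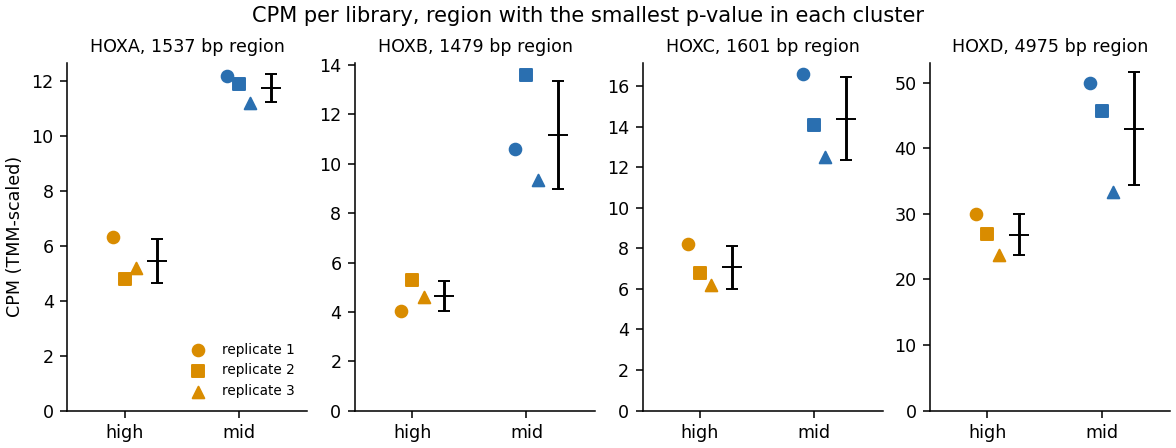
TMM-scaled CPM in each library for the region with the smallest p-value of HOXA, HOXB, HOXC and HOXD, with 1 symbol per replicate number and black marks for the mean and SD of 3 replicates, on axes that start at 0 and differ between panels. In all 4 panels the mid libraries lie above the high libraries, with means of 5.44 and 11.8 CPM in HOXA and of 26.9 and 43.0 CPM in HOXD.

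Open regions lay more densely in each window than in the sequence around it. HOXA had 17.6 regions per 100 kb, which covered 26.5% of its window, against 3.8 per 100 kb and 3.77% in the 500 kb on each side. HOXD had 14.3 per 100 kb and 31.8% covered, against 4.0 and 3.63% in its flanks. For HOXB the values were 12.2 per 100 kb and 18.9%, against 6.6 and 9.06%, and for HOXC 10 and 20.9%, against 7.4 and 11.8%. Per kb of open region, the signal was 4.53 CPM in high and 6.47 in mid for HOXA, 4.08 and 6.55 for HOXB, 4.18 and 6.85 for HOXC, and 6.25 and 8.49 for HOXD.
The 218 flanking regions were closer to 0 on the log2 scale. Their median log2 fold change was -0.18, and 22 of them (10.1%) were called higher in mid. Over all regions the median was 0.03 and 3.77% were called higher in mid, so the flanks too lay on the mid side of the whole table. The flanks of HOXC had 12 of 74 called at a median of -0.23, those of HOXB 9 of 66 at -0.30 and those of HOXA 1 of 38 at -0.21. The flanks of HOXD had 0 of 40 called by edgeR and a median of 0.19, with 28 regions above 0. The difference between clusters and flanks was not tested.

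Region width moved with the fold change over the whole table, and HOX regions were wide. Their median width was 1608.5 bp, with a range of 575 to 4975 bp, against 879 bp over all regions, and 26 of the 92 (28.3%) belonged to the widest 10% of regions, which were at least 2150 bp. In that widest 10%, 22.4% of all regions were called higher in mid, with a median log2 fold change of -0.23. Of the 26 wide HOX regions 15 (57.7%) were called, with a median of -0.57. Of the other 66 HOX regions 20 (30.3%) were called, with a median of -0.52, beside 1.71% and 0.06 for all regions outside the widest 10%. These 2 sets were not matched. The 66 HOX regions had a median width of 1392.5 bp and a median log2 CPM of 2.88, against 825 bp and 1.88. Within the widest 10%, HOX regions had the lower median log2 CPM, 4.14 against 4.92. Over all widths it was 3.09 in HOX regions and 2.03 in all regions.
With loess offsets on region width, 24 of the 35 HOX calls held and none was added, against 2.38% of all regions called higher in mid. These were 5 in HOXA, 14 in HOXB, 5 in HOXC and 0 in HOXD. The HOX median was then -0.49, and that of the clusters -0.52 in HOXA, -0.66 in HOXB, -0.55 in HOXC and -0.31 in HOXD, beside 0.01 for all regions. In HOXD the adjusted p of chr2:176968648-176973622 rose to 0.0694 and that of chr2:176961129-176965813 to 0.483. In HOXB, chr17:46655162-46656640 kept an adjusted p of 6.76e-06.
Across the 92 members, log2 fold change and log2 width had a Pearson r of -0.28 and a Spearman rho of -0.28. Within clusters, r with log2 width was -0.61 in HOXC over 14 regions, -0.38 in HOXA, -0.33 in HOXB and -0.22 in HOXD. With average log2 CPM it was -0.73 in HOXC, -0.43 in HOXA, -0.3 in HOXB and -0.16 in HOXD. The points share their 6 libraries and depth, and these values are descriptions without a test.

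**Figure D4:**
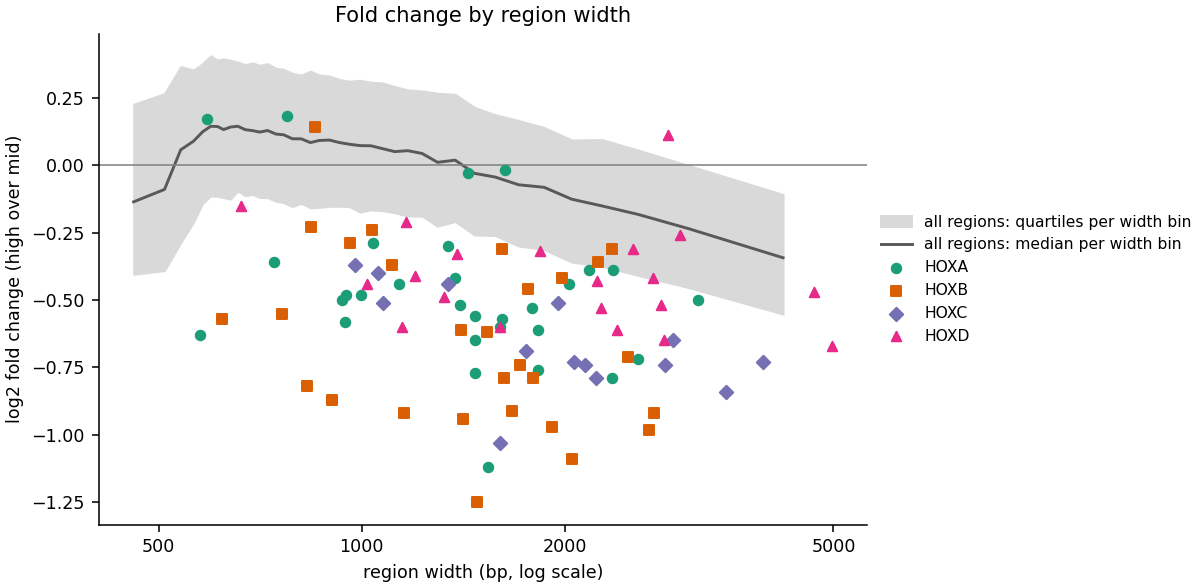
Log2 fold change of high over mid against region width in bp on a log axis, with 1 point per HOX region by cluster, and the median (line) and quartiles (band) of all regions in bins of width. The line rises over the narrowest bins and falls with width after them, and most HOX points lie below the band, among them narrow HOXB regions, while many wide HOXD points lie near its lower edge.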

How the data were processed

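FAST-ATAC libraries of 3 high and 3 mid samples were analysed. The authors trimmed the reads, aligned them with BWA to hg19, removed duplicates, shifted reads for Tn5 and pooled replicates to call regions with MACS. The 2 populations' regions were merged, blacklisted ones dropped, and the authors deposited raw read counts per region. The submitters' processing notes give BWA 0.7.15, SAMtools 0.1.19 and MACS 1.4.2. Every library was counted over the merged set, so a region called in 1 population has counts in both.

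Counts of all 118556 regions were fitted unfiltered with edgeR 4.0.16 in R 4.3.3, using TMM, a quasi-likelihood test, and the replicate number as a block of 3 levels, standing for the batch of the study's model. Benjamini-Hochberg adjustment ran over all regions, and calls were made under 0.01. The SE is the log2 fold change divided by the root of the F statistic. Pair ratios used CPM plus 0.5. Same-numbered samples deviated together (r from 0.19 to 0.30, against -0.26 to 0.06 for different numbers), so the numbers were taken to pair the samples. This check came from the data, not the labels. Deviations were taken from each population's own mean, so positive values for same numbers pull the others down. The ranges are therefore not independent of each other. The p-values measure the spread between these replicates of 1 line.

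Named regions were, in each cluster, up to 8 called regions by p-value, the widest, the one with the highest CPM, and those with the highest and lowest log2 fold change. The members, lists and alternatives were chosen with earlier results of these data known. Alternatives used limma 3.58.1 (loess, span 0.3), DESeq2 1.42.0, other scalings, filters and left-out samples. The model was tested on simulated data with 200 regions changed 2-fold. The main model recovered 107 of them with 2 false calls, and DESeq2 recovered 62. The simulated counts held no replicate effect, so they do not test the choice of block. RefSeq promoters are from GRCh38.p14.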

Additional observations from a re-analysis of the deposited data

How the results depend on the processing

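No HOX region was called higher in the high population under any of the alternatives run. Without the replicate block 10 regions were called higher in mid, 1 in HOXA, 6 in HOXB, 3 in HOXC and 0 in HOXD. With scaling by total counts HOXD had 2 calls and the HOX median was -0.43, where the median of all regions was 0.12. Loess offsets on average CPM left 3 calls in HOXD, and offsets on width left 5 in HOXC and 0 in HOXD. Over all regions, 4472 were called higher in mid in the main fit and 1312 without the block. That number was 3179 with total counts, 3104 with loess offsets on average CPM and 2827 with those on width. At an adjusted p under 0.05, HOXA had 15 and HOXD 10, against 7.08% of all regions. Leaving out 1 sample or 1 pair gave 2 to 39 HOX calls higher in mid, while those over all regions ran from 432 to 5500. By cluster the HOX calls ran from 0 to 9 in HOXA, 1 to 15 in HOXB, 1 to 9 in HOXC and 0 to 7 in HOXD. The HOX medians ran from -0.58 to -0.49. The lowest counts were those without replicate 2 of mid or of both. Leaving out 1 sample left its partner alone in its block. Such a fit gave nearly the fold changes of the one without the pair, though not always the same number of calls. The left-out fits hold fewer samples, and why replicate 2 weighs most was not tested. Among the 33 named regions under 20 alternatives each, 519 values stayed on their side of the threshold, 133 lost a call, 5 gained one and 3 changed sign. The sign changes all concerned the uncalled region chr17:46593390-46594242. It was at -0.02 without replicate 2 of high, of mid or of both, 3 fits that amount to nearly the same contrast. Its left-out range was -0.02 to 0.33. The mean share difference stayed between -0.0373 and -0.0266 percentage points. Regions to which DESeq2 gave no adjusted p, 11 of the 92, were not counted as lost calls. Without a same-build annotation no region was tied to a gene.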
